A study of Danio rerio with 20 samples.

Results

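Lactate dehydrogenase interconverts pyruvate and lactate, and phosphoglycerate mutase moves the phosphate of phosphoglycerate in the lower part of glycolysis. In vertebrates the A subunit of lactate dehydrogenase (*ldha* in zebrafish) is best known from skeletal muscle and the B subunit (*ldhba* and *ldhbb*) from heart and other aerobic tissues, while *pgam2* is the muscle form of the mutase and *pgam1a* and *pgam1b* are the broadly expressed forms. The isoform genes described here are *ldhbb* (ENSDARG00000071076), *ldha* (ENSDARG00000040856), *pgam1a* (ENSDARG00000005423) and *pgam2* (ENSDARG00000057571), 4 of 32512 genes in the count table. They were picked by name, because the study placed them among the glycolysis genes whose daily pattern in these same libraries was altered in the mutant. Their own levels and rhythms are therefore given as a description, without a p-value.

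Whole zebrafish larvae at 5 dpf were sequenced, 30 larvae per RNA extraction, with 1 library for each of 5 conditions at each of 4 *Zeitgeber* times (ZT3, ZT9, ZT15 and ZT21, in hours after lights on). The conditions were *rx3 strong* mutants in 25 µM dexamethasone (DEX) with 0.1% DMSO, wild-type siblings in the same DEX solution, and *rx3 strong* mutants, *rx3 weak* mutants and wild-type siblings that the labels call untreated. *rx3* encodes a homeobox factor of the eye field and hypothalamus. *rx3 strong* larvae (allele rx3t25327) have no eyes and little cortisol, *rx3 weak* larvae (rx3t25181) have no eyes but normal cortisol, and DEX is a synthetic glucocorticoid. The labels give mixed TU, AB and WIK strains for all samples. Per the labels the DEX libraries were made with another kit than the untreated ones, so that DEX and kit cannot be told apart in any comparison of a treated with an untreated library. The difference of the 2 genotype differences on the log2 scale is called the interaction below. It cancels a kit effect only where that effect multiplies the level of a gene by the same factor in both genotypes.

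Total counts were between 12586879 and 49738048 in the DEX libraries and between 16427280 and 22204708 in the untreated ones. The *rx3* transcript itself was at 1.42 to 1.86 CPM (the count scaled by the size of its library) in *rx3 strong* larvae with DEX, against 1.66 to 4.47 CPM in wild-type larvae with DEX. Without DEX it was at 1.94 to 2.85 CPM in *rx3 strong* and 1.64 to 2.32 CPM in *rx3 weak*, against 4.05 to 6.60 CPM in wild-type siblings. All 9 photoreceptor and retina markers tested were lower in *rx3 strong* larvae than in wild-type siblings, with and without DEX. Without DEX all 9 were also lower in *rx3 weak* than in wild-type siblings, and lower in *rx3 strong* than in *rx3 weak*. Their summed level was 11.3 to 21.5 CPM in *rx3 strong*, 86.3 to 186 CPM in *rx3 weak* and 2358 to 2982 CPM in wild-type siblings. *rx3 strong* and *rx3 weak* thus differed in eye transcripts too. Both DEX libraries at ZT3 stood apart by their muscle transcripts, and values without them are given with *pgam2*. Other DEX values below include these libraries. Without them the log2 difference of *rx3 strong* over wild-type under DEX was -0.21 in place of -0.11 for *ldha* and 0.65 in place of 0.67 for *ldhbb*. The interaction of *pgam1a* was then 0.15 in place of 0.03. There are no replicate libraries of a condition at a time point, so the 4 time points stood in for replicates in every fit. The SE of a difference comes from a spread estimated per gene, shared by all genotypes of the fit and moderated across genes. It is therefore not the spread of that difference over the time points and can be below it.

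The most marked differences in level were those of *ldhbb*, a B subunit gene. Without DEX, its level in *rx3 strong* larvae was 8.40, 11.5, 13.3 and 12.3 CPM at ZT3, ZT9, ZT15 and ZT21. At the same times *rx3 weak* larvae had 14.4, 15.99, 26.5 and 22.4 CPM and wild-type siblings 20.0, 20.9, 36.6 and 33.8 CPM. The 4 *rx3 strong* libraries lay below all wild-type libraries (as for 7.59% of all genes) and below all *rx3 weak* libraries (6.06%). *rx3 weak* was lower than wild-type at each time point (14.8% of genes), although their ranges overlapped. The lowest of these values rests on 156 reads, in *rx3 strong* at ZT3.

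The log2 difference of *ldhbb* was -1.27 ± 0.10 (SE of the fit over 12 libraries) for *rx3 strong* over wild-type siblings and -0.77 ± 0.10 for *rx3 strong* over *rx3 weak*. Between *rx3 weak* and wild-type siblings the log2 difference was -0.51 ± 0.10. The ratio of *rx3 strong* to wild-type was 0.42 at ZT3, 0.55 at ZT9, 0.363 at ZT15 and 0.364 at ZT21.

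Under DEX the order of the genotypes was the opposite. *ldhbb* was at 137.5, 117.8, 101.8 and 127.1 CPM in *rx3 strong* larvae with DEX over ZT3, ZT9, ZT15 and ZT21, against 83.3, 67.2, 89.5 and 67.4 CPM in wild-type larvae with DEX. All 4 mutant libraries lay above all 4 wild-type libraries (2.17% of genes), and the narrowest gap at one time point was at ZT15. The log2 difference under DEX was 0.67 ± 0.14, and the interaction was 1.92 ± 0.19. *ldhbb* was lower in *rx3 strong* at all 4 times without DEX and higher at all 4 with it, a pattern held by 236 of 23546 genes (1%).

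Set against the untreated libraries, *ldhbb* averaged 121 ± 15.2 CPM in *rx3 strong* with DEX and 11.4 ± 2.11 CPM in *rx3 strong* without it (SD, n = 4 time points each), a ratio of means of 10.6. In wild-type siblings it averaged 76.9 ± 11.3 CPM with DEX and 27.8 ± 8.61 CPM without, a ratio of 2.76. The DEX libraries lay above the untreated ones in both genotypes, as for 26.8% of all genes in *rx3 strong* and 24.9% in wild-type siblings. Both ratios combine DEX with the change of kit. From high to low the mean levels ran from *rx3 strong* with DEX through wild-type with DEX, untreated wild-type and *rx3 weak* to untreated *rx3 strong*, and among neighbours in that order only untreated wild-type and *rx3 weak* overlapped.

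**Figure D1:**
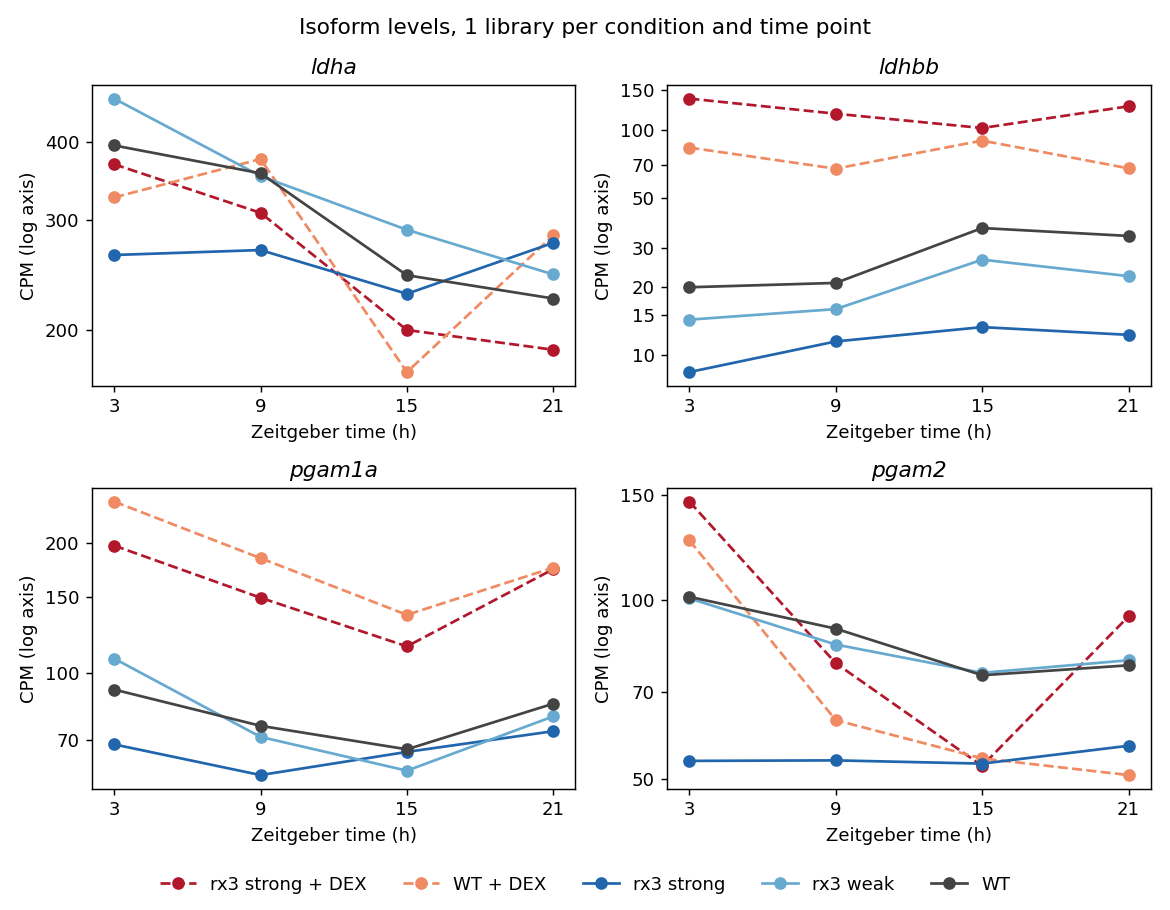
Level of each isoform gene (CPM on a log axis, a scale of its own in each panel) against *Zeitgeber* time in hours, 1 point per library; dashed lines are DEX libraries and solid lines untreated ones. For *ldhbb* the untreated *rx3 strong* line is lowest, between 8.40 and 13.3 CPM, and the *rx3 strong* line with DEX highest, between 101.8 and 137.5 CPM; for *ldha* and *pgam2* the untreated *rx3 strong* line is nearly flat.

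*ldha*, the A subunit gene, differed in its daily course more than in its mean. In untreated *rx3 strong* larvae it was at 264 CPM at ZT3, 269 CPM at ZT9, 229 CPM at ZT15 and 276 CPM at ZT21. The *rx3 weak* larvae had 469, 353, 289 and 246 CPM at these times and wild-type siblings 395, 356, 245 and 225 CPM, both highest at ZT3 and lowest at ZT21. *rx3 strong* had a spread of 1.21-fold between highest and lowest, against 1.91-fold in *rx3 weak* and 1.76-fold in wild-type siblings. The median gene with a mean of at least 50 counts and reads in all 20 libraries spread by 1.34-fold in each of the 3 untreated genotypes. *ldha* was picked for a daily pattern altered in *rx3 strong* in these same libraries, so nothing is read from its flatter course there.

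With DEX, *ldha* was at 369, 308, 200 and 186 CPM in *rx3 strong* larvae at the 4 successive times, against 326, 376, 171 and 284 CPM in wild-type larvae. Both courses were higher at ZT3 and ZT9 than at ZT15, and at ZT21 they parted, low in the mutant and high in the wild-type. The ranges of *ldha* overlapped between all groups. The fitted log2 differences were -0.20 ± 0.12 for *rx3 strong* over wild-type, 0.13 ± 0.12 for *rx3 weak* over wild-type, -0.33 ± 0.12 for *rx3 strong* over *rx3 weak* and -0.11 ± 0.16 under DEX, with an interaction of 0.07 ± 0.22. With 1 library left out these moved between -0.37 and -0.06, 0.03 and 0.20, -0.49 and -0.18, -0.23 and 0.08, and -0.05 and 0.25, so that the difference under DEX and the interaction could turn their sign. *rx3 strong* was below wild-type at 3 time points and above it at ZT21. The SD over the 4 time points was 0.39 for *rx3 strong* over wild-type and 0.12 for *rx3 weak* over wild-type.

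*pgam2*, the muscle form of the mutase, was the second gene with a lower level in untreated *rx3 strong* larvae. It was at 53.6, 53.7, 53.0 and 56.8 CPM there. In *rx3 weak* larvae the values were 100.5, 84.1, 75.4 and 79.1 CPM and in wild-type siblings 101.2, 89.4, 74.7 and 77.6 CPM. The *rx3 strong* libraries lay below all wild-type libraries (7.59% of all genes) and below all *rx3 weak* libraries (6.06%), while *rx3 weak* and wild-type differed by at most 0.09 on the log2 scale at any time point. The fitted log2 difference was -0.66 ± 0.08 for *rx3 strong* over wild-type, -0.62 ± 0.08 for *rx3 strong* over *rx3 weak* and -0.04 ± 0.08 for *rx3 weak* over wild-type.

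The gap between *rx3 strong* and wild-type was widest at ZT3, where the ratio was 0.53, and narrowest at ZT21, where it was 0.732. Over the day *pgam2* spread by 1.07-fold in *rx3 strong*. This is at the 2.28th percentile of 18345 genes with at least 50 counts on average and reads in all 20 libraries. *pgam2* spread by 1.33-fold in *rx3 weak* and 1.35-fold in wild-type siblings, close to the median gene. It was picked for a daily pattern altered in *rx3 strong* in these same libraries, so nothing is read from its rank there.

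Under DEX *pgam2* was at 146.2, 78.2, 52.6 and 93.8 CPM in *rx3 strong* larvae, against 125.8, 62.7, 54.1 and 50.7 CPM in wild-type larvae. Both genotypes peaked at ZT3, the mutant was higher at 3 of 4 time points, and the groups overlapped. The log2 difference was 0.36 ± 0.15 under DEX and the interaction 0.99 ± 0.19. Without both DEX libraries at ZT3, which was tried after the data were seen, these were 0.40 ± 0.18 and 1.11 ± 0.20. Without *rx3 strong* with DEX at ZT21 the difference under DEX was 0.19.

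In larvae sequenced whole, fewer cells of a type and less RNA per cell cannot be told apart. For *pgam2* the levels of 9 fast skeletal muscle markers (of 15 listed, the others unmatched by symbol) are given beside it. All 9 were called higher in untreated *rx3 strong* than in wild-type siblings, where 18.6% of all genes were called in either direction. Their median log2 difference was 0.48. Their summed level was 48272 to 57634 CPM in *rx3 strong*, 41023 to 45011 CPM in *rx3 weak* and 35928 to 38230 CPM in wild-type siblings. Of 10 liver markers 7 were also called higher in *rx3 strong* than in wild-type siblings, and 1 lower. No marker of the list had 0 reads summed over the 4 libraries of a condition. *pgam2* was lower in *rx3 strong* while the muscle markers were higher, and whether the amount of muscle differed was not tested. Per 1000 CPM of these markers it was at 1.05 ± 0.05 CPM in *rx3 strong*, against 1.96 ± 0.28 CPM in *rx3 weak* and 2.32 ± 0.31 CPM in wild-type siblings (SD, n = 4 time points).

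Under DEX the marker sum moved with *pgam2*. It was 92614 CPM in *rx3 strong* and 97042 CPM in wild-type at ZT3, where *pgam2* peaked, and between 34753 and 57906 CPM in the other 6 DEX libraries. *pgam2* per 1000 marker CPM was 1.43 ± 0.21 CPM in *rx3 strong* with DEX and 1.27 ± 0.14 CPM in wild-type with DEX (SD, n = 4 time points). The part of the muscle transcripts in the daily course of *pgam2* under DEX was not tested.

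**Figure D2:**
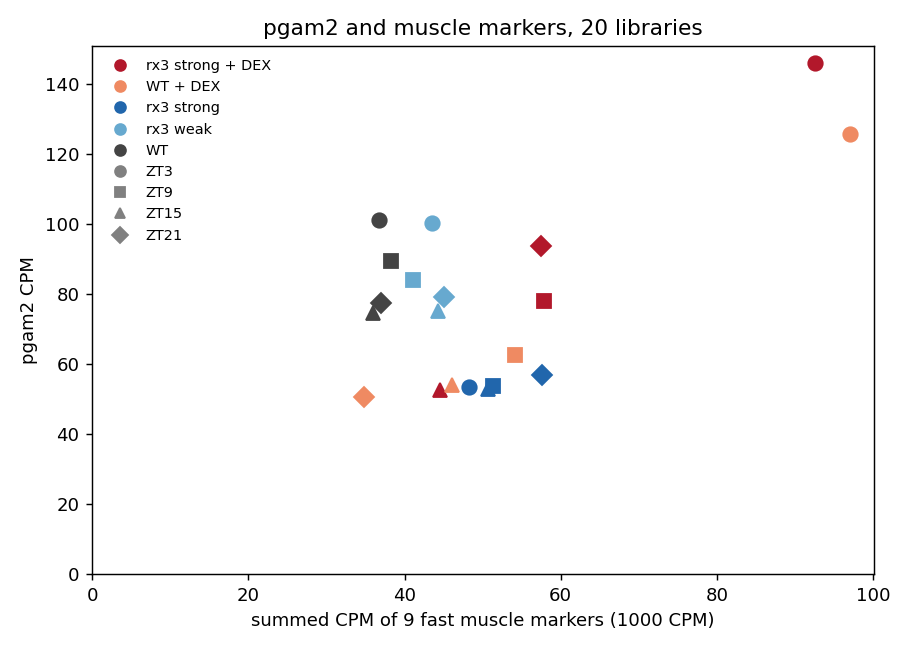
*pgam2* level (CPM) against the summed level of 9 fast muscle markers (in units of 1000 CPM), 1 point per library, with colour for the condition and shape for the time point. Untreated *rx3 strong* libraries combine marker sums of 48272 to 57634 CPM with *pgam2* at 53.0 to 56.8 CPM, and both DEX libraries at ZT3 lie at the upper right.

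*pgam1a*, a broadly expressed mutase gene, had overlapping levels between genotypes in each treatment. It was at 68.5, 58.2, 65.8 and 73.5 CPM in untreated *rx3 strong*, 108.1, 71.3, 59.6 and 79.5 CPM in *rx3 weak* and 91.7, 75.6, 66.7 and 85.1 CPM in wild-type siblings. *rx3 strong* was lower than wild-type at all 4 time points (17.2% of genes), least so at ZT15. The log2 differences were -0.26 ± 0.10 for *rx3 strong* over wild-type, -0.22 ± 0.10 for *rx3 strong* over *rx3 weak* and -0.04 ± 0.10 for *rx3 weak* over wild-type.

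With DEX *pgam1a* was at 197.0, 149.3, 115.3 and 173.8 CPM in *rx3 strong* larvae and 248.8, 184.2, 136.3 and 175.2 CPM in wild-type larvae. Both genotypes had their lowest value at ZT15 and their highest at ZT3. The log2 difference was -0.21 ± 0.12 and the interaction 0.03 ± 0.14. In each genotype the DEX libraries lay above the untreated ones (26.8% of all genes in *rx3 strong* and 24.9% in wild-type), with a ratio of means of 2.39 in *rx3 strong* and 2.33 in wild-type siblings, in which DEX and kit cannot be told apart.

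**Figure D3:**
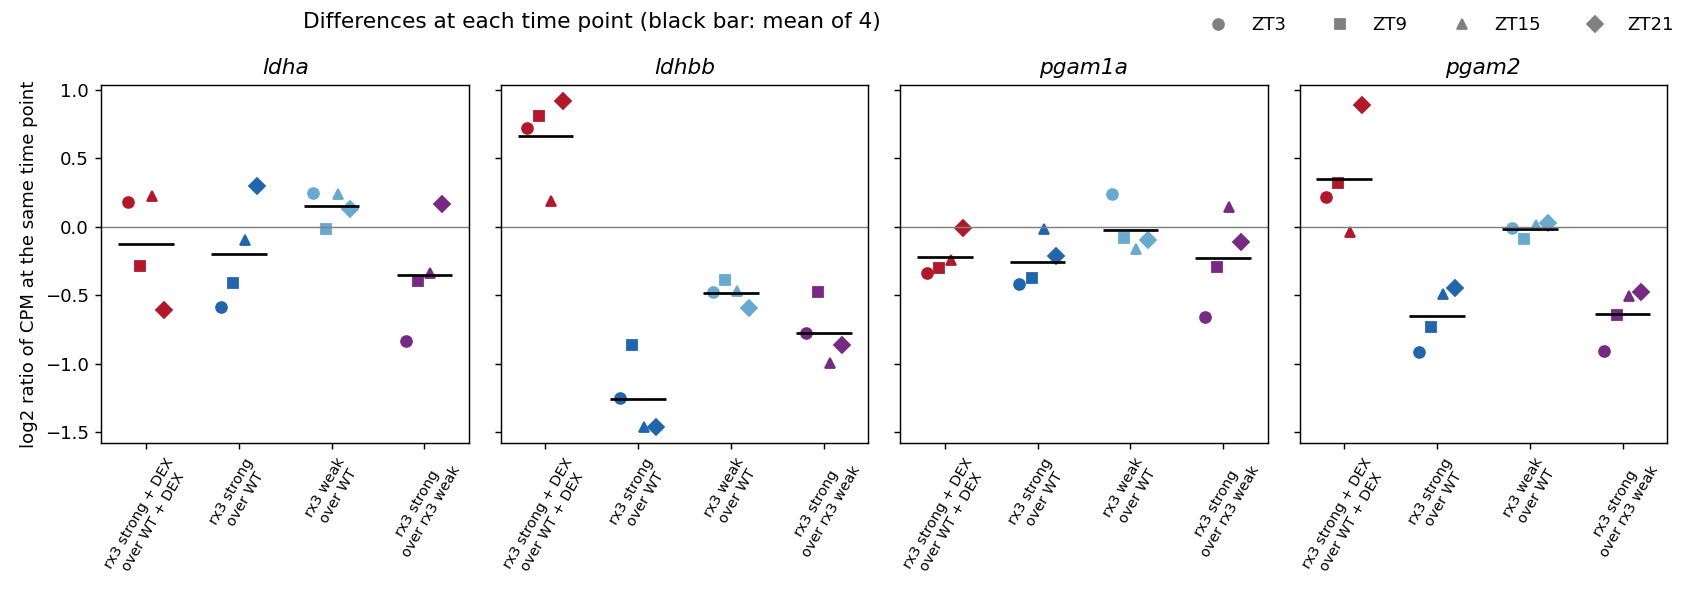
Log2 ratio of CPM between 2 conditions at the same time point for each gene, with 1 symbol per time point and a black bar for the mean of 4. For *ldhbb* all 4 ratios of *rx3 strong* to wild-type lie above 0 with DEX and below 0 without it, and for *pgam2* the ratios of *rx3 weak* to wild-type lie close to 0.

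By an edgeR quasi-likelihood test over the whole table, a gene was called where its Benjamini-Hochberg adjusted p was under 0.05. In *rx3 strong* against wild-type siblings 2 of the 4 genes were called lower, *ldhbb* and *pgam2*, where 10.2% of all genes were called lower and 18.6% in either direction. In *rx3 weak* against wild-type *ldhbb* was called lower (7.63% of all genes lower), and in *rx3 strong* against *rx3 weak* *ldhbb* and *pgam2* were called lower (7.08%). Under DEX *ldhbb* was called higher (3.4%), and in the interaction *ldhbb* and *pgam2* were called higher (1.41%). A time of day effect, fitted as the same in each genotype, was called for *ldhbb*, *ldha* and *pgam1a* without DEX (17.9% of all genes) and for *pgam1a* and *pgam2* with DEX (12.5%). That fit does not test whether the genotypes shared a course. Since the genes were chosen on these libraries, nothing is read from these counts. Without the pairing by time point the number of members called was 2 in *rx3 strong* and 0 in *rx3 weak* against wild-type, where 2078 and 1652 genes were called. It was 1 in *rx3 strong* against *rx3 weak* (1059 genes), 0 under DEX (585) and 1 in the interaction (35). Under DEX limma on the deposited log2 table also called 0 members. Without the filter on low counts 3 members were called in untreated *rx3 strong* against wild-type (4337 genes) and 3 against *rx3 weak* (2878). With 1 library left out, 2 or 3 members were called in each of these comparisons, where 3061 to 4518 and 2011 to 2620 genes were called. The call under DEX depended on single libraries, and the count of members called there was 0 without *rx3 strong* with DEX at ZT3, ZT9 or ZT21 or without wild-type with DEX at ZT3 or ZT9. In the interaction it was 1 without untreated *rx3 strong* or wild-type at ZT3 or ZT9. For time of day it was 1 to 4 without DEX and 0 to 3 with DEX when 1 library was left out, and 0 without either DEX library at ZT3. With DEX that count changed under all 6 other settings and with each of the 8 libraries left out. The number over all genes moved too, from 59 to 5141 under the other settings and from 522 to 2941 with 1 library left out. Nothing is read from how the member counts moved.

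The daily course was fitted as a 24 h cosine on variance-stabilised log2 values. Peak-to-trough amplitudes of *ldha* were 0.21 in *rx3 strong*, 0.88 in *rx3 weak* and 0.94 in wild-type siblings, with peaks at ZT5.43 in *rx3 weak* and ZT5.90 in wild-type. Those of *pgam2* were 0.10 in *rx3 strong*, 0.43 in *rx3 weak* and 0.46 in wild-type siblings, peaking at ZT3.79 in *rx3 weak* and ZT4.57 in wild-type. For *pgam1a* the amplitudes were 0.35, 0.86 and 0.48 in *rx3 strong*, *rx3 weak* and wild-type, with a peak at ZT21.6 in *rx3 strong*, against ZT2.33 in *rx3 weak* and ZT1.52 in wild-type.

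*ldhbb* ran in another phase, with its maximum in the early night. Its amplitude was 0.56 in *rx3 strong*, 0.89 in *rx3 weak* and 1.04 in wild-type siblings, and the fitted peaks were at ZT15.7, ZT16.9 and ZT17.6 in these genotypes. All 4 genes had their smallest untreated amplitude in *rx3 strong*. They were picked for a daily pattern altered in that mutant in these same libraries, so nothing is read from this. With DEX the peak of *ldhbb* was at ZT2.27 in *rx3 strong*, with an amplitude of 0.47. In wild-type with DEX the fitted amplitude was 0.05, below the residual spread of 0.37, so that no phase is given.

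Amplitudes under DEX were 1.18 in *rx3 strong* and 1.06 in wild-type for *ldha*, 0.82 and 0.93 for *pgam1a* in the same order of genotypes, and 1.52 and 1.31 for *pgam2*. The residual spread of the wild-type fits was 0.45 for *ldha* and 0.55 for *pgam2*, and each fit had 3 coefficients for 4 libraries. The median gene also spread more over the day with DEX, 1.57-fold in *rx3 strong* and 1.67-fold in wild-type, against 1.34-fold without it.

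**Figure D4:**
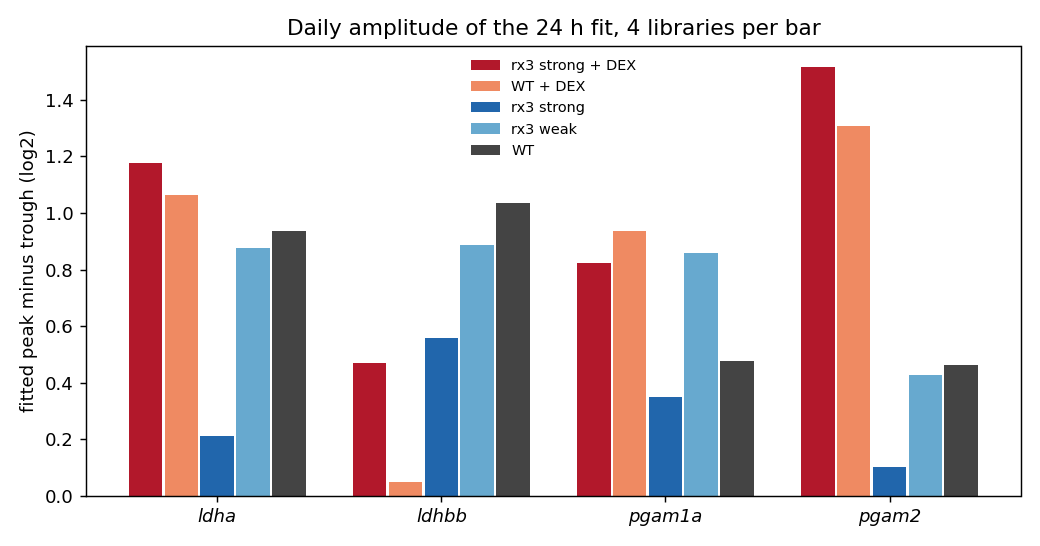
Fitted peak minus trough (log2) of the 24 h cosine for each gene and condition, 4 libraries per bar, without error bars because the fit leaves 1 degree of freedom. Untreated *rx3 strong* has the lowest bar for *ldha* (0.21), *pgam1a* (0.35) and *pgam2* (0.10), and wild-type with DEX the lowest for *ldhbb* (0.05).

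Models with no, shared or separate rhythms in each genotype were compared by the Bayesian information criterion. The best for *ldha* and *pgam2* had no rhythm in *rx3 strong* and a shared one in *rx3 weak* and wild-type, at weights of 0.745 and 0.517, a pattern given to 6.77% of 19605 genes. For *ldhbb* and *pgam1a* a separate rhythm in each genotype was best, at weights of 0.632 and 1.00 (11.9% of genes). The 4 genes were picked for a daily pattern altered in *rx3 strong* in these same libraries. Nothing is therefore read from their untreated patterns, by this or another criterion. Under DEX *ldha* and *pgam2* had a rhythm shared by both genotypes (25.8% of 18367 genes) and *pgam1a* a separate one in each (23.2%), while no pattern of *ldhbb* reached the weight of 0.5 that was required. With a corrected Akaike criterion in its place, the untreated pattern was the same for *ldha* and *pgam2*. It became that same pattern for *pgam1a* and a rhythm shared by all 3 genotypes for *ldhbb*. Under DEX this criterion gave no rhythm for any of the 4 genes. Its penalty on added coefficients grows steeply when libraries are few. With 8 DEX libraries a separate rhythm in each genotype could not be chosen, and a shared one was heavily penalised. The absence of a rhythm under DEX by this criterion therefore says little about these genes.

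To compare levels between genes, CPM was divided by the gene length in the deposited table. *ldhba*, the other B subunit gene, held the largest share of the summed lactate dehydrogenase level per length in each condition, at 63.9% ± 4.34 in *rx3 strong* with DEX, 67.4% ± 4.71 in wild-type with DEX, 72.1% ± 1.44 in *rx3 strong*, 62.4% ± 2.90 in *rx3 weak* and 64.7% ± 2.59 in wild-type siblings (SD, n = 4 time points). *ldhbb* held 17.7% ± 1.82 in *rx3 strong* with DEX and 11.6% ± 2.42 in wild-type with DEX. Without DEX its share was 2.34% ± 0.57 in *rx3 strong*, 4.26% ± 1.68 in *rx3 weak* and 5.82% ± 2.38 in wild-type siblings. Without division by length its share of the reads was 11.4% and 7.31% in *rx3 strong* and wild-type with DEX, and 1.40%, 2.51% and 3.50% in untreated *rx3 strong*, *rx3 weak* and wild-type. The rest per length was *ldha*, at 18.5% and 20.9% in *rx3 strong* and wild-type with DEX and at 25.6%, 33.4% and 29.5% in untreated *rx3 strong*, *rx3 weak* and wild-type.

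The summed lactate dehydrogenase level was 470 ± 33.9 CPM per kb in *rx3 strong*, 464 ± 80.6 in *rx3 weak* and 472 ± 54.0 in wild-type siblings, so it differed by less than its spread over time. *ldhbb* was thus a minor transcript of a family whose sum was similar in the 3 untreated genotypes.

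Among the mutase genes *pgam1a* was the most abundant per length, an order that turned without division by length in the untreated libraries. Per length it held 60.7% ± 2.74 in *rx3 strong* with DEX, 67.3% ± 3.06 in wild-type with DEX, 47.0% ± 2.38 in *rx3 strong*, 44.2% ± 4.30 in *rx3 weak* and 43.2% ± 2.29 in wild-type siblings. *pgam2* held 28.9% ± 1.14 in *rx3 strong*, against 36.0% ± 1.82 in *rx3 weak* and 34.9% ± 2.40 in wild-type. The summed mutase level per kb was 184 ± 9.05 CPM in *rx3 strong*, 232 ± 37.5 CPM in *rx3 weak* and 240 ± 24.9 CPM in wild-type siblings. These shares depend on the length used, and without division by length *pgam1a* held 30.2% of the mutase reads in *rx3 strong*, 29.6% in *rx3 weak* and 28.2% in wild-type, against 45.1%, 38.5% and 41.6% for *pgam1b* in these genotypes. Reads that map to more than 1 place had been left out by the authors, which can lower the level of close paralogs such as *ldhba* and *ldhbb*.

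**Figure D5:**
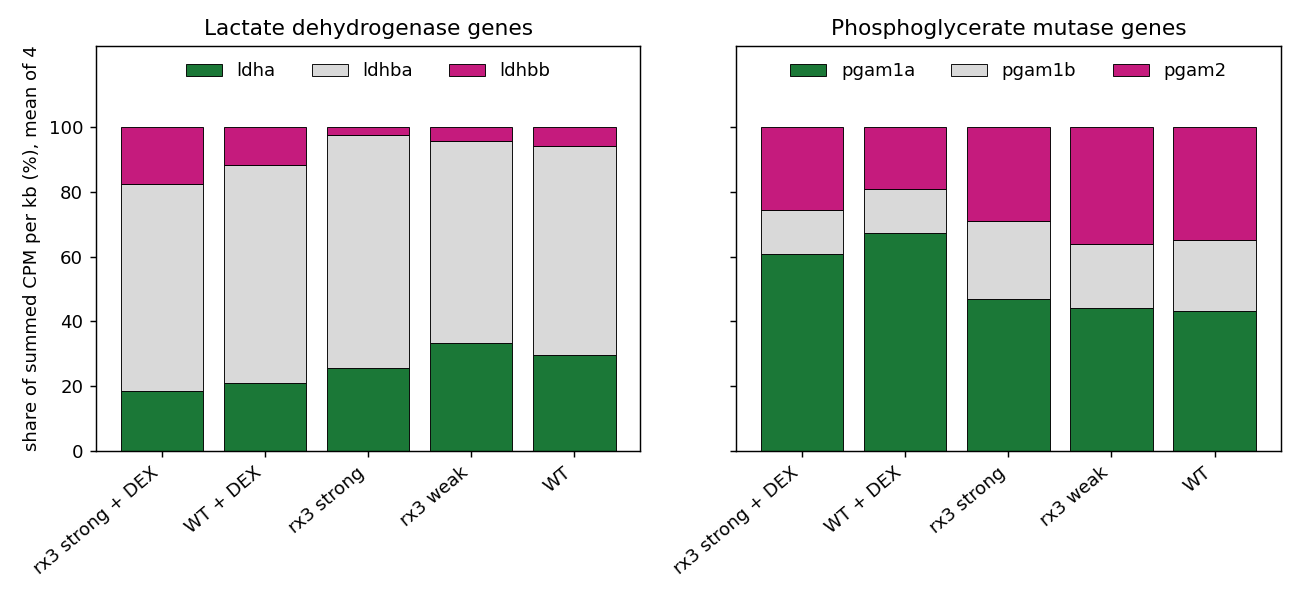
Share (%) of each gene in the summed CPM per kb of its family, as the mean of 4 libraries per condition. *ldhbb* is the top segment on the left, largest in *rx3 strong* with DEX (17.7%) and smallest in untreated *rx3 strong* (2.34%); on the right *pgam1a*, the lowest segment, holds 60.7% to 67.3% with DEX and 43.2% to 47.0% without.

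Of both families 4 further genes were examined. *ldhba* averaged 553 ± 45.8 CPM in *rx3 strong*, 471 ± 68.1 CPM in *rx3 weak* and 497 ± 39.2 CPM in wild-type siblings, a log2 difference of 0.25 ± 0.07 between *rx3 strong* and *rx3 weak*. *pgam1b* was at 99.3 ± 6.11 CPM in *rx3 strong* and 101.4 ± 2.43 CPM in *rx3 weak*, against 117 ± 3.07 CPM in wild-type siblings, log2 differences of -0.25 ± 0.07 and -0.23 ± 0.07. *ldhd*, which encodes a D-lactate dehydrogenase, and *bpgm*, which encodes bisphosphoglycerate mutase, had log2 differences between -0.17 and 0.10 in the 5 genotype comparisons. Of the 4, *pgam1b* was called against wild-type in *rx3 strong* (18.6% of all genes called) and in *rx3 weak* (14.1%). *ldhba* was called in *rx3 strong* against *rx3 weak* (11.8%). None was called between the genotypes with DEX (7.8%) or in the interaction (2.22%). With 4 genes, nothing is read from these counts.

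Between DEX and untreated libraries, where DEX and kit cannot be told apart, *bpgm* averaged 40.01 ± 3.18 CPM in *rx3 strong* with DEX against 16.8 ± 0.65 CPM without, and 39.3 ± 6.58 CPM in wild-type with DEX against 17.6 ± 0.76 CPM without (SD, n = 4 time points). These are ratios of 2.39 and 2.23. *ldhba* averaged 681 ± 47.8 CPM in *rx3 strong* with DEX and 711 ± 171 CPM in wild-type with DEX, 1.23 and 1.43 times the untreated means given above.

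Within glycolysis other isoforms moved in both directions. Of 31 further glycolysis genes in the study's pathway table, 6 rose and 10 fell in *rx3 strong* against wild-type siblings (18.6% of all genes called), with a median log2 difference of -0.09, against 0.01 over all genes. Changes are given as log2 differences ± SE. Among those with the smallest edgeR adjusted p, *gapdh*, glyceraldehyde phosphate dehydrogenase, rose by 0.69 ± 0.10 (adjusted p = 3.45e-05) and *eno3*, the muscle enolase, by 0.43 ± 0.07 (adjusted p = 0.000217). *eno1b*, an enolase, fell by 1.38 ± 0.10 (edgeR adjusted p = 6.61e-09), and *pfkpb*, a phosphofructokinase, fell by 0.58 ± 0.09 (adjusted p = 0.000133). Of 11 genes of the gluconeogenic branch 3 rose and 3 fell, among them *g6pca.2*, a catalytic subunit of glucose-6-phosphatase, which fell by 0.91 ± 0.14 (edgeR adjusted p = 0.00014).

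In *rx3 weak* against wild-type siblings 8 glycolysis genes rose and 6 fell (14.1% of all genes called), and 2 gluconeogenic genes rose. *gck*, glucokinase, rose by 3.35 ± 0.34 (edgeR adjusted p = 6.59e-07), with 52.5 ± 20.9 CPM in *rx3 weak* against 6.01 ± 6.36 CPM in wild-type. A pyruvate kinase gene, CABZ01066502.1, rose by 1.03 ± 0.12 (adjusted p = 3.65e-06, edgeR) and *hkdc1*, a hexokinase domain gene, by 0.61 ± 0.09 (edgeR adjusted p = 9.87e-05). *eno1b* fell by 1.37 ± 0.10 (edgeR adjusted p = 8.67e-09), *pfkpb* fell by 0.62 ± 0.09 (adjusted p = 6.58e-05) and *aldocb*, a brain-type aldolase, fell by 0.47 ± 0.08 (adjusted p = 0.00037). *eno1b* was therefore lower in both eyeless mutants, whereas *pgam2* was lower in *rx3 strong* and within 0.09 of wild-type in *rx3 weak*.

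Between *rx3 strong* and *rx3 weak* 1 glycolysis gene rose and 6 fell (11.8% of all genes called), and 1 gluconeogenic gene rose and 3 fell. *pcxb*, pyruvate carboxylase, rose by 0.27 ± 0.08 (edgeR adjusted p = 0.0447). *pfkma*, a muscle phosphofructokinase, fell by 1.14 ± 0.10 (edgeR adjusted p = 1.15e-07), *gck* fell by 3.70 ± 0.34 (adjusted p = 4.25e-07) and *g6pca.2* fell by 1.11 ± 0.14 (adjusted p = 2.79e-05). 

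With DEX 3 glycolysis genes rose and 2 fell in *rx3 strong* against wild-type (7.8% of all genes called), and 3 gluconeogenic genes rose and 1 fell. *pfkmb*, a muscle phosphofructokinase, rose by 0.94 ± 0.15 (edgeR adjusted p = 0.0038), *pck2*, the mitochondrial phosphoenolpyruvate carboxykinase, by 0.70 ± 0.13 (adjusted p = 0.00931) and *pfkma* by 0.89 ± 0.17 (adjusted p = 0.0116). *fbp2*, the muscle fructose-bisphosphatase, fell by 1.40 ± 0.18 (edgeR adjusted p = 0.000957), *eno1b* fell by 1.53 ± 0.21 (adjusted p = 0.00159) and *tpi1a*, a triosephosphate isomerase, fell by 0.64 ± 0.15 (adjusted p = 0.0266).

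In the interaction 3 glycolysis genes and 3 gluconeogenic genes were called higher and 1 gluconeogenic gene lower (2.22% of all genes called). *pfkma* was called at 1.46 ± 0.21 (edgeR adjusted p = 0.00354), *g6pca.2* at 1.21 ± 0.20 (adjusted p = 0.00619), *pck2* at 0.92 ± 0.16 (adjusted p = 0.011) and *fbp2* at -1.82 ± 0.22 (adjusted p = 0.000991). *pfkma* shared with *ldhbb* the lower mean in untreated *rx3 strong* than in wild-type and the higher mean with DEX. With DEX it was at 263 ± 85.5 CPM in *rx3 strong* and 154 ± 90.3 CPM in wild-type, and unlike those of *ldhbb* these ranges overlapped. Without DEX it was at 97.8 ± 12.8 CPM in *rx3 strong* and 146 ± 12.0 CPM in wild-type. In *rx3 weak* it was above wild-type, at 217 ± 16.3 CPM, whereas *ldhbb* was below. The interaction of *ldhbb*, 1.92, was above that of 99.2% of all genes, and that of *pgam2*, 0.99, above that of 96.5%. Both genes were chosen on these libraries, so nothing is read from these ranks.

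The 4 genes were alike to different degrees. Across the 12 untreated libraries, which share genotypes and time points, Pearson's r of log2 CPM was 0.70 between *pgam2* and *pgam1a*, 0.70 between *pgam2* and *ldha* and 0.59 between *ldha* and *pgam1a*. For *ldhbb* it was 0.53 with *pgam2*, 0.11 with *pgam1a* and -0.16 with *ldha*. Among 14625 annotated genes, those most alike to *ldhbb* were *PURB*, a purine-rich element binding protein (r = 0.97), *gas2l3* (0.94) and *DDX5*, an RNA helicase (0.93). For *ldha* they were *tpi1b*, a triosephosphate isomerase of the same pathway (0.94), *TXN*, a thioredoxin (0.93), and *faub* (0.93), and for *pgam1a* *mat2al*, a methionine adenosyltransferase (0.95), *tent5ba* (0.91) and *LMBR1L* (0.91).

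Closest to *pgam2* were *ANKRD1*, an ankyrin repeat gene of striated muscle (r = 0.95), *MYO5B*, a class V myosin (0.94), and *EAF2* (0.94). *ANKRD1* averaged 13.5 ± 2.45 CPM in *rx3 strong*, 53.5 ± 23.2 CPM in *rx3 weak* and 55.1 ± 16.4 CPM in wild-type siblings. The 12 genes were picked for the highest r over the untreated libraries, so a lower r in other libraries follows largely from that choice. Over the 8 DEX libraries r was lower for every one of them. The highest were 0.80 for *LMBR1L*, 0.63 for *ANKRD1* and 0.59 for *tpi1b*, and the lowest was -0.55 for *gas2l3*.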

How the data were processed

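Raw counts per gene as deposited for 20 libraries of whole larvae were analysed. Per the labels and the study's methods the authors mapped reads to Zv9 with STAR, counted uniquely mapped reads per Ensembl gene with HTSeq, and deposited these counts beside a log2 table made with DESeq2 (variance-stabilised). Whether counting used strand is not given in the sources used here. The labels call the controls untreated and the column names call them DMSO, and the study's methods name 1 library kit where the labels name 2. For strain the labels give mixed TU, AB and WIK, where the study's methods name AB wild-type fish and the mutant lines. The labels do not say that larvae of different time points came from separate clutches, so errors and p-values measure the spread between these libraries.

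Each comparison used edgeR 4.0.16 (quasi-likelihood, TMM, filterByExpr, Benjamini-Hochberg, threshold 0.05) in R 4.3.3 with time point as a factor: 12 untreated libraries together, 8 DEX libraries, and 16 for the interaction. CPM used TMM over all 20 libraries. Rhythms were fitted as 24 h cosines on variance-stabilised values (DESeq2 1.42.0), with a weight of at least 0.3 (untreated) or 0.5 (DEX) for a pattern. On simulated data the level tests recovered most of the changes put in, all of the same size and in genes with at least 50 counts on average. Smaller changes and daily courses that differ by genotype were not simulated there. The Bayesian criterion often chose a fuller rhythm pattern than the one simulated, so patterns are descriptions. limma 3.58.1 was applied to the deposited log2 table as an alternative. Isoform shares are per kb of the deposited gene length, and the exact binomial 95% interval of a share in the reads of 1 library was at most 2.90 percentage points wide (counting error only).

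Text names 4 genes in full, their 4 family members, the 3 genes most alike to each, and up to 3 genes per direction and comparison from the pathway table, by adjusted p, of which 1 gene is not reported here. The genes, lists and tests were chosen with earlier results of these data known. Symbols were found for 21946 of 32512 gene IDs. No coordinates or sequences are given, since no annotation of the Zv9 build was used here.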

Additional observations from a re-analysis of the deposited data

Results flagged for a closer look

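*pgam2* in wild-type larvae with DEX was at 125.8 CPM at ZT3, far from the 50.7 to 62.7 CPM of the other 3 libraries of that condition, in 1 of 20 groups of 4 libraries examined for a value that stands apart, which chance gives in about 1 of 20. The summed fast muscle markers were 97042 CPM in that library, against 34753 to 54198 CPM in the other 3, and this library had the lowest total count, 12586879.

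For *ldhbb* the mean log2 difference between *rx3 strong* and wild-type was 0.66 with DEX and -1.26 without, with all 4 time points on opposite sides. The fitted difference between them, the interaction, was 1.92 ± 0.19 and was called higher by the edgeR test, as were 1.41% of all genes. No p is given because the gene was chosen on these libraries.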

How the results depend on the processing

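Of 360 values of the members' log2 differences under other settings or with 1 library left out, 346 kept the sign reported, and no called difference turned its sign. All were refits of these same libraries, so that a kept sign was largely built in. Without the pairing by time point (no replicate block), 2078, 1652 and 1059 genes were called in place of 4252, 3210 and 2686 for *rx3 strong* over wild-type, *rx3 weak* over wild-type and *rx3 strong* over *rx3 weak*, 585 in place of 1826 under DEX and 35 in place of 523 in the interaction. Without the genotype term 1350 in place of 4079 genes had a time effect without DEX and 59 in place of 2936 with it. DESeq2 called 866 genes in the interaction and 5141 for time with DEX, and limma on the deposited log2 table called 796 under DEX and 91 for time with DEX. Leaving out both DEX libraries at ZT3, chosen after seeing the data, gave 459 for time with DEX and called no member for genotype or time under DEX. With 1 library left out the counts were 3061 to 4518, 2206 to 3586 and 2011 to 2620 for the untreated genotype comparisons, 1085 to 1501 under DEX, 213 to 691 in the interaction, 2986 to 4305 for time without DEX and 522 to 2941 with it, the lowest without wild-type with DEX at ZT3. In the interaction 1 member was called, in place of 2, without *rx3 strong* or wild-type at ZT3 or ZT9 and without the pairing. The lowest *ldhbb* count, 156 reads, limits the precision of its level.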
